A study of Mus musculus with 6 samples.

Results

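The nuclear genes whose symbols name subunits of the respiratory chain were followed in RNA-seq of small intestinal adenomas. A gene was included when its symbol began with Nduf followed by A, B, C, S or V and a digit (complex I), was Sdha to Sdhd (complex II), or began with Uqcr (complex III), Cox4 to Cox8 (complex IV) or Atp5 (complex V), and pseudogene symbols containing -ps were left out. This gave 84 genes of the 48440 listed, with 37 in complex I, 4 in complex II, 8 in complex III, 18 in complex IV and 17 in complex V. The libraries came from adenoma polyps of ApcMin mice, which carry a mutant Apc allele and form intestinal polyps, on a C57BL/6 background at an age above 42 days. In ApcMin PCdel mice (libraries QC3, QC8 and QC10), Cre from a knock-in at Defa4 switches on diphtheria toxin A (Rosa26-iDTA) in the Paneth cell (PC) lineage, the granule-bearing cells of the crypt base. The ApcMin controls (QC4, QC5 and QC6) were littermates with Rosa26-iDTA and no Cre, by the study's methods, which also give both sexes for the experiments and embryonic stem cells of 129/svJ origin for the Cre allele. The comparison asks how adenoma transcripts differ when this lineage is depleted. The labels do not say that each library came from a separate mouse, and p-values measure the spread between these libraries only.

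The respiratory chain sits in the inner mitochondrial membrane. Complexes I and II take electrons from NADH and succinate, complex III passes them to cytochrome c, complex IV hands them to oxygen, and complex V, the ATP synthase, uses the proton gradient that complexes I, III and IV build. Most subunits are encoded in the nucleus, complex II entirely so, and in the small intestine the chain supplies the ATP of absorptive enterocytes and of the dividing crypt. Some symbols cover genes with another role. Ndufa4 is now assigned to complex IV, Cox7a2l joins complexes into supercomplexes, and Atp5s and Atp5sl are not subunits of the ATP synthase.

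The depth of the libraries was even, at 5.407 to 5.876 gigabases of aligned sequence. Epithelial markers (Epcam, keratins and others) summed to between 4560 and 6579 FPKM (fragments per kilobase, relative to library size) in every library. All 10 PC markers had a lower mean of log2(FPKM + 1) in ApcMin PCdel (9 of 10 without QC6), and their summed level was 4219 to 7216 FPKM there against 6378 to 13365 FPKM in ApcMin, so the sums overlapped. ApcMin library QC6 stood apart, with the highest sum of enterocyte markers (25357 FPKM, against 9424 to 15414 FPKM in the other 5 libraries), the highest sum of erythroid markers (1932 FPKM) and the lowest sum of epithelial markers. Of all 14240 genes tested, 46.0% had their lowest value in QC6.

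The members were abundant transcripts. Of the 84 genes, 79 passed the filter of a mean of at least 1 FPKM, and 75 exceeded 25 FPKM. The median member stood at the 96.4th percentile of the mean level of the genes tested. Together they took 2.72% to 3.17% of the FPKM of a library. Their longest annotated transcripts had a median of 1046 bases, against 2959 bases for all genes tested. Per transcript length, the levels differed between complexes. The median member of complex I was at 92.3 to 103.6 FPKM over the 6 libraries, and that of complex II at 150.9 to 208.7 FPKM. The median member of complex III was at 194.7 to 247.6 FPKM, that of complex IV at 250.02 to 328.0 FPKM and that of complex V at 252.2 to 329.8 FPKM. Complexes IV and V overlapped in this order. The median of complex IV is over the 13 members that passed the filter. Over all 18 it was 186.1 to 232.2 FPKM, which overlaps complex III.

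The 5 genes below the filter were all isoforms of complex IV. Cox7b2 and Cox8c, known from testis, were listed at 0 in every library. Cox8b, a muscle isoform, was listed at 0 in 5 libraries and at 0.161 FPKM in QC10. Cox6a2, the other muscle isoform, had 0.192 to 0.508 FPKM, and Cox4i2, an isoform linked to low oxygen, had 0.367 to 0.893 FPKM. Their widely expressed partners were far higher, with Cox8a at 661.1 to 838.5 FPKM, Cox6a1 at 567.8 to 749.8 FPKM and Cox4i1 at 355.1 to 568.7 FPKM. The same held for Cox6b1 (525.2 to 630.5 FPKM) beside the testis isoform Cox6b2 (2.74 to 4.53 FPKM). Cox7a1, known from heart and skeletal muscle, was the exception, at 65.9 to 153.9 FPKM beside 222.3 to 289.7 FPKM of Cox7a2. Ndufa4l2, a hypoxia-linked relative of Ndufa4, had 0.925 to 2.01 FPKM beside 259.9 to 392.1 FPKM of Ndufa4. Among the genes for subunit c of the ATP synthase rotor, which encode the same mature protein, Atp5g3 was the highest in each library (576.7 to 869.9 FPKM), above Atp5g1 (209.3 to 311.6 FPKM) and Atp5g2 (140.5 to 167.8 FPKM). The assignment of reads to Atp5g2 is uncertain, because its transcripts share 40.2% of their 31-base words with other genes. This was so for at least 20% of the words of 11 members.

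Promoter sequence was a feature that the choice of members did not use. RefSeq windows from 250 bases before to 50 bases after the start (GRCm38.p6) matched 69 of the 84 members. On either strand, 20 of them (29.0%) held GCGCANGCG, letters of the NRF1 site, against 7.03% of 27025 genes. These 27025 genes were not matched to the members in level or base composition. The ETS letters CCGGAAG, which the factor GABP reads, stood in 16 (23.2%, against 9.93%), and the YY1 letters AAGATGGCG in 8 (11.6%, against 1.64%). None of these patterns contains another, and 36 members (52.2%) held at least 1, against 16.5% of all genes. By complex, the NRF1 letters were in 8 of 32 windows of complex I, 2 of 3 of complex II, 2 of 5 of complex III, 1 of 13 of complex IV and 7 of 16 of complex V. These patterns were chosen from 8 that were tried, after their shares were seen. Of those not chosen, the Sp1 letters GGGGCGGGG were in 12 members (17.4%, against 12.9%) and the ERR letters TCAAGGTCA in 2 (2.9%, against 0.466%). The NRF1 form tried at first has T in place of N and ends in a further C. It was in 5 members (7.25%, against 1.07%), and its first 8 letters were in 10 (14.5%, against 3.05%). With N in place of T that form was in 17 members (24.6%, against 5.19%). The pattern in use is 1 letter shorter again and was tried last. Letters are a description of the window and not evidence of binding.

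For each complex with such letters wholly before the RefSeq start, the most abundant such member on another chromosome than 18 was taken. The stretches are shown 80 bases long, 5′ to 3′ on the strand of the gene, with NRF1 and ETS letters in capitals. They lie at chr13:73328483-73328562 (minus strand, Ndufs6), chr9:50603850-50603929 (minus, Sdhd), chr5:115349031-115349110 (minus, Cox6a1) and chr11:115420016-115420095 (minus, Atp5h) in GRCm38.p6. Cox7a1 (chr7:30184091-30184170, plus) is shown as a stretch with none of the 3 patterns. It also had the widest range between libraries of the tested members. Only 36 of the 69 members held any pattern, and a link between patterns and range was not tested. The deposited gene positions put the start of Ndufs6 at 73328542 and that of Cox7a1 at 30184144. Both of these stretches therefore lie partly within the gene as listed there. For Ndufs6 the marked NRF1 letters fall in that part, after the start listed there, although they lie before the RefSeq start.
Ndufs6: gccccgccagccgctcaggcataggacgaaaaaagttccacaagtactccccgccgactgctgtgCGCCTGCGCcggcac
Sdhd: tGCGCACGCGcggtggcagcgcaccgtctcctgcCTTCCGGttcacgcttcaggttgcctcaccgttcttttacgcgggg
Cox6a1: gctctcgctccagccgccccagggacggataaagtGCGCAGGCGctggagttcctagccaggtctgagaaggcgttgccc
Atp5h: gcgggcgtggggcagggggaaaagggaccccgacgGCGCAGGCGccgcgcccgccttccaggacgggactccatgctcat
Cox7a1: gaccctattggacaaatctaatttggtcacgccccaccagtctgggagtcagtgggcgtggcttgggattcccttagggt

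Between the genotypes, no respiratory chain gene passed the test, and the fitted differences were small and mostly negative in ApcMin PCdel. Of the 79 genes tested with limma on log2(FPKM + 1), 0 had a Benjamini-Hochberg adjusted p under 0.05 (0.014% of all genes tested) and 1 had an unadjusted p under 0.05 (3.38% of all genes, and 0.681% when counted in its direction, lower in ApcMin PCdel). The mean was lower in ApcMin PCdel in 67 of the 79 (84.8%), against 36.9% of all genes tested. The set of all genes was not matched to the members in level or transcript length. The median log2 fold change of the members was -0.11, against 0.04 for all genes tested. The members' median was -0.05 with TPM, quantile normalization or array weights, and the all-gene median was 0.10 with TPM and -0.001 with quantile normalization. By complex it was -0.11 in complex I (30 of 37 lower), -0.09 in complex II (3 of 4), -0.11 in complex III (8 of 8), -0.14 in complex IV (11 of 13) and -0.08 in complex V (15 of 17). Library QC6 carried much of this difference. Without it the median log2 fold change of the members was -0.04, with 52 of 79 lower, and that of all genes was 0.00 to 2 decimals (-0.0027). In complex II the sign turned without QC6, to a median of 0.06 with 0 of 4 lower, and in complex V 9 of 17 were lower, with a median of -0.01. In bulk tissue, fewer cells of a type and less RNA per cell cannot be told apart.

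**Figure D1:**
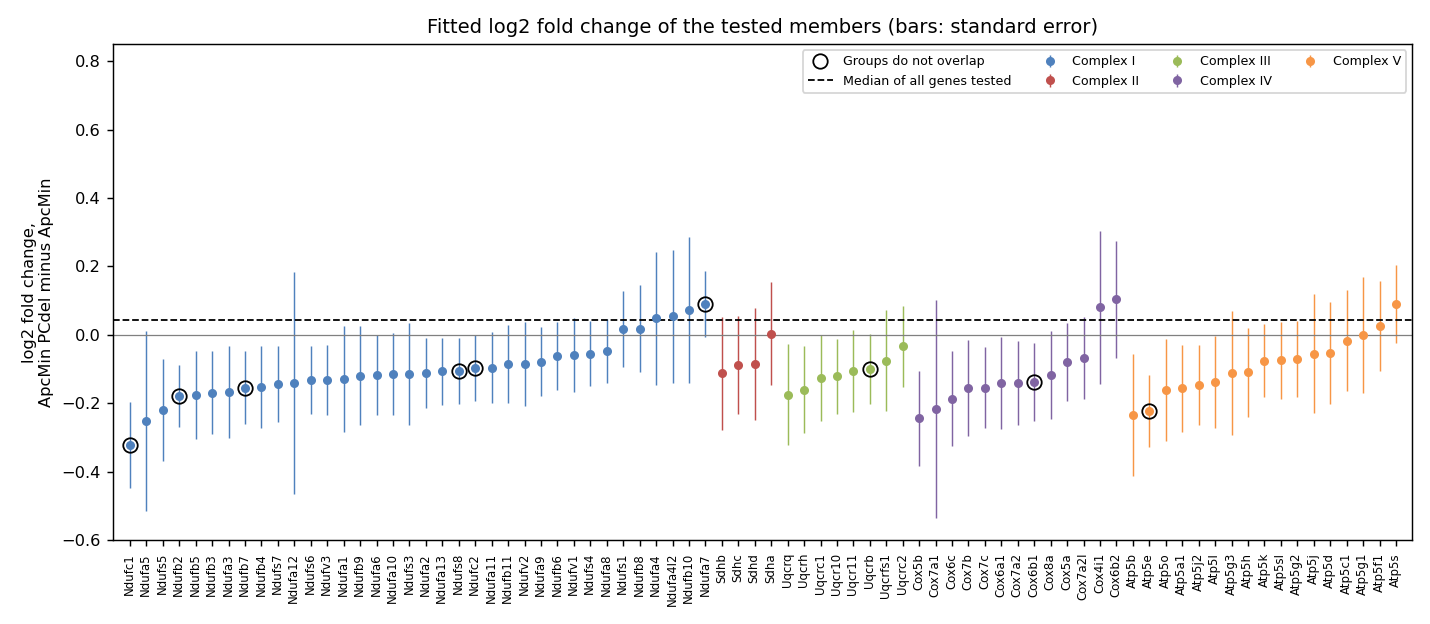
Fitted log2 fold change (ApcMin PCdel minus ApcMin, on the log2(FPKM + 1) scale) of 78 tested members, ordered within each complex, with the standard error as bars. Most points lie below 0 and below the dashed median of all genes tested, and rings mark the 9 members whose groups do not overlap.

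Summed over the members, FPKM was 16465, 15470 and 15527 in QC3, QC8 and QC10, and 15672, 16492 and 19154 in QC4, QC5 and QC6. QC6 was the highest library, and the groups overlapped. The FPKM total of all genes was also highest in QC6, at 604974 against 549225 to 583051 in the other libraries. The members' share of that total was 3.17% in QC6 and 2.72% to 2.9% in the others. The mean sum was 15821 ± 559 (SD, n = 3) in ApcMin PCdel and 17106 ± 1821 (SD, n = 3) in ApcMin. In each of the 5 complexes, QC6 had the highest sum. In complex II the sum was 813.8 FPKM in QC6 against 588.9 to 678.3 FPKM in the other libraries, and in complex I it was 4494 FPKM against 3902 to 4169 FPKM.

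**Figure D2:**
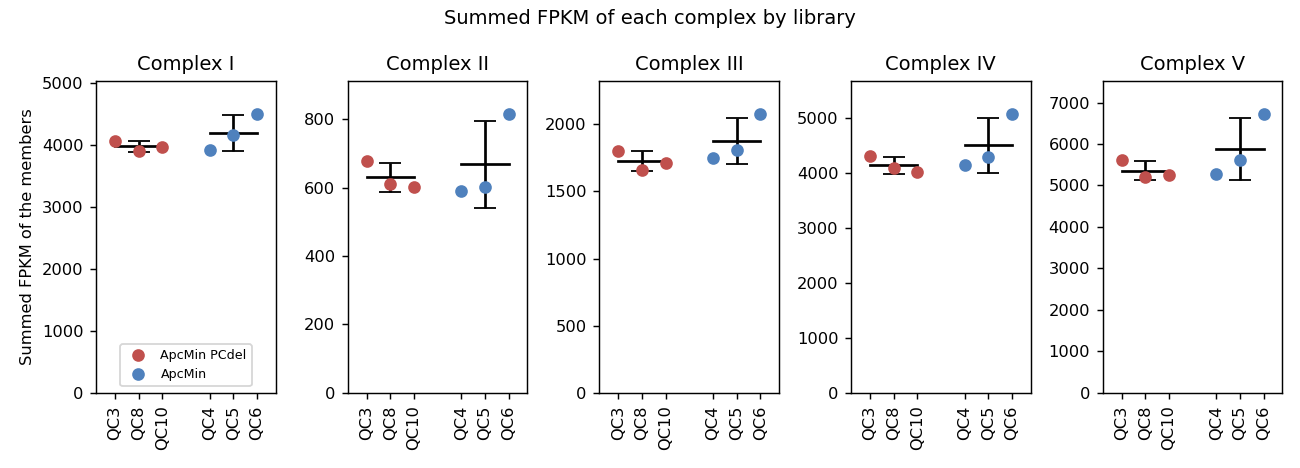
Summed FPKM of the members of each complex (vertical axis, from 0) in each of the 6 libraries, with the mean and SD of each group (n = 3) as bars. QC6 is the highest point in every panel. QC4 and QC5 lie within or near the ApcMin PCdel range, and in complex II (588.9 and 600.4 FPKM) they lie below it.

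Gene by gene, 58 of the 79 tested members (73.4%) had their highest value in QC6, against 12.5% of all genes tested. This was the case for 24 of 37 members of complex I, 4 of 4 of complex II, 7 of 8 of complex III, 10 of 13 of complex IV and 13 of 17 of complex V. It was not particular to the members. QC6 was also highest for 13 of 17 tricarboxylic acid cycle genes and 9 of 10 subunits and carriers outside the symbol rule. For glycolysis it was 1 of 16 genes, for assembly factors 9 of 46 and for the cytosolic ribosome 1 of 84. The median deviation of the members in QC6 from the mean of the 6 libraries was 0.20 on the log2 scale (0.15 in complex I and 0.33 in complex II), while that of all genes was -0.13. The other libraries lay between -0.10 (QC8) and 0.01 (QC5). The summed level of the enterocyte markers was also highest in QC6, with 6 of 8 markers highest there and 2 in QC10. The sum of the PC markers was highest there too (13365 FPKM, with 5 of 10 markers highest in QC6). So were the sums of erythroid, leukocyte and fat cell markers. The sums of epithelial, fibroblast (185.3 FPKM) and endothelial (26.7 FPKM) markers were lowest in QC6. The part of any of these cell types in the level of the members was not tested. Within the groups the median SD of the members was 0.13 on the log2(FPKM + 1) scale. It was 0.17 for all genes tested, a set that was not matched to the high level of the members. This pattern was noticed in the data and is given as a description.

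**Figure D3:**
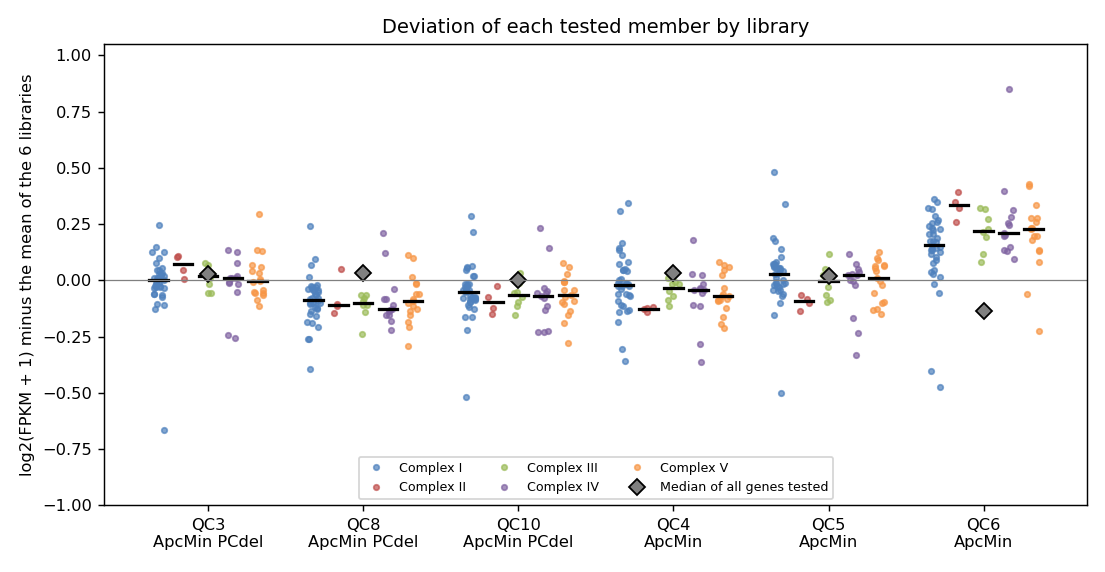
Deviation of 78 tested members (points, coloured by complex) from its mean over the 6 libraries, in log2(FPKM + 1), for each library. Black bars are the medians of the complexes and grey diamonds the median of all genes tested; in QC6 the members' bars lie above 0 and the diamond below it, at -0.13.

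In complex I, which oxidizes NADH, Ndufc1 was the only member with an unadjusted p under 0.05. It is an accessory subunit of the membrane arm (chromosome 3, 51404677 to 51408988, minus strand, GRCm38). Its level was 46.3, 43.2 and 44.6 FPKM in QC3, QC8 and QC10, and 62.3, 47.7 and 59.4 FPKM in QC4, QC5 and QC6. Every ApcMin PCdel library was below every ApcMin library. The fitted difference was -0.32 on the log2 scale, with a standard error of 0.13 (limma p = 0.04 unadjusted and 1.0 adjusted, exact two-sided permutation p = 0.1, the smallest that 3 against 3 libraries allow). The difference was not seen in the read coverage deposited beside the FPKM. Per aligned gigabase, coverage of Ndufc1 was 37.7, 34.3 and 36.0 in QC3, QC8 and QC10 and 33.0, 36.9 and 33.3 in QC4, QC5 and QC6, so the groups overlapped and the log2 fold change was 0.06.

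The core subunits of complex I described here showed no difference that passed the test. Ndufv1, which binds NADH, was at 60.6 ± 2.44 FPKM in ApcMin PCdel and 63.3 ± 6.25 FPKM in ApcMin (SD, n = 3 each). Ndufs1, an iron-sulfur subunit, was at 58.4 ± 3.30 and 57.9 ± 5.76 FPKM (SD, n = 3 each). Ndufs8, another iron-sulfur subunit, was at 85.7, 78.7 and 88.5 FPKM in QC3, QC8 and QC10, against 91.8, 90.9 and 89.1 FPKM in QC4, QC5 and QC6. Its groups did not overlap, although its log2 fold change was only -0.10 (standard error 0.10). Ndufv2, Ndufs3 and Ndufs7, also core subunits, had log2 fold changes of -0.09, -0.11 and -0.14, with overlapping groups. The most abundant members of the group were Ndufa4, Ndufb9 and Ndufa6, with log2 fold changes of 0.05, -0.12 and -0.12.

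In complex II, succinate dehydrogenase, which also serves the tricarboxylic acid cycle, all 4 members were highest in QC6. The flavoprotein Sdha was at 173.9, 167.9 and 146.0 FPKM in QC3, QC8 and QC10, against 148.0, 147.3 and 194.0 FPKM in QC4, QC5 and QC6. The iron-sulfur subunit Sdhb was at 170.4, 153.3 and 166.7 FPKM and at 153.8, 160.3 and 223.4 FPKM, in the same order. The membrane anchor Sdhd was at 269.1, 230.4 and 229.3 FPKM and at 229.4, 232.8 and 317.5 FPKM. For each of them QC6 was the highest library, and QC4 and QC5 were within or near the range of ApcMin PCdel. Sdhc, the other anchor, was at 57.6 to 78.9 FPKM, again highest in QC6. The log2 fold changes were 0.00 (Sdha, 0.0037), -0.11 (Sdhb), -0.09 (Sdhc) and -0.08 (Sdhd), none larger than its standard error.

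In complex III, cytochrome bc1, all 8 members had a lower mean in ApcMin PCdel, with log2 fold changes from -0.17 (Uqcrq) to -0.03 (Uqcrc2). Uqcrb, a small subunit at the quinone site, was the only one whose groups did not overlap, at 247.9, 237.8 and 241.5 FPKM in QC3, QC8 and QC10 and 248.3, 260.0 and 271.9 FPKM in QC4, QC5 and QC6. The gap between QC3 and QC4 was small, and 34.8% of the 31-base words of Uqcrb also occur in other genes. The hinge subunit Uqcrh was at 274.6 ± 5.22 and 308.3 ± 38.3 FPKM, and Uqcr10 at 307.0 ± 16.2 and 333.8 ± 16.1 FPKM, in ApcMin PCdel and ApcMin (SD, n = 3 each). The core protein Uqcrc1 had a log2 fold change of -0.13 and the Rieske iron-sulfur protein Uqcrfs1 one of -0.08. Without QC6, 6 of the 8 were lower, with a median of -0.05.

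In complex IV, cytochrome c oxidase, Cox5b had the lowest value, at a log2 fold change of -0.24 (standard error 0.14) with overlapping groups. The structural subunit Cox6b1 was at 565.3, 537.5 and 525.2 FPKM in QC3, QC8 and QC10, against 577.6, 583.9 and 630.5 FPKM in QC4, QC5 and QC6, with no overlap (log2 fold change -0.14, standard error 0.11). Cox4i1, the regulatory isoform of most tissues, was at 474.6, 500.2 and 369.0 FPKM and at 355.1, 366.7 and 568.7 FPKM. Its range within each group exceeded the difference between the means (log2 fold change 0.08, standard error 0.22). Cox7a1 was at 71.5, 72.6 and 93.8 FPKM in QC3, QC8 and QC10, against 65.9, 75.6 and 153.9 FPKM in QC4, QC5 and QC6. QC6 was the only high library, and the log2 fold change of -0.22 (standard error 0.32) rested on it. Smooth muscle markers summed to 327.9 FPKM in QC6, within the 211.0 to 448.4 FPKM of the other libraries. Their part in the level of Cox7a1 was not tested. Cox8a, Cox6a1, Cox6c, Cox7a2, Cox7b and Cox7a2l had log2 fold changes from -0.19 (Cox6c) to -0.07 (Cox7a2l), and Cox6b2 had 0.10.

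In complex V, Atp5b, the catalytic beta subunit, was the most abundant member. It was at 858.2, 864.8 and 843.6 FPKM in QC3, QC8 and QC10, against 811.8, 1012 and 1243 FPKM in QC4, QC5 and QC6. The ApcMin libraries were spread on both sides of the ApcMin PCdel libraries (log2 fold change -0.23, standard error 0.18, and -0.05 on coverage). The alpha subunit Atp5a1 was at 683.9 ± 64.0 FPKM and 760.3 ± 24.6 FPKM (SD, n = 3 each; log2 fold change -0.16). Atp5e, the epsilon subunit of the central stalk, was at 279.7, 255.8 and 273.4 FPKM in QC3, QC8 and QC10, against 308.5, 305.7 and 329.8 FPKM in QC4, QC5 and QC6. Its groups did not overlap on FPKM or on coverage (difference -0.22 on the log2 scale with a standard error of 0.11, adjusted p = 1.0 from limma, exact two-sided permutation p = 0.1). The subunit c genes Atp5g1, Atp5g2 and Atp5g3 had log2 fold changes of 0.00, -0.07 and -0.11. Atp5s had the largest positive value, 0.09 (standard error 0.11).

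Over all complexes, the groups did not overlap in 8 members that were lower in ApcMin PCdel (Atp5e, Cox6b1, Ndufb2, Ndufb7, Ndufc1, Ndufc2, Ndufs8 and Uqcrb), against a background of 1.54% of all genes tested. In the other direction it was 1, Ndufa7 (130.7, 132.9 and 128.3 FPKM against 117.4, 122.8 and 128.0 FPKM), against 6.0% of all genes (7.54% in either direction). Ndufb2, Ndufb7, Ndufc2 and Ndufa7, accessory subunits of complex I, are named here after their values were seen. On coverage, 10 members were lower without overlap (background 1.4%) and 1 was higher (background 5.41%). Of these, 6 and 1 were the same genes as on FPKM, a readout that is not independent of coverage. With limma on coverage, 0 members had an adjusted p under 0.05 (background 0.0154%) and 0 an unadjusted p under 0.05.

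FPKM and coverage did not give the same spread between libraries. They agreed within 1% in every library for 21 members. Coverage was divided by the most common ratio of coverage to FPKM in each library. For genes at that ratio the agreement was fixed in advance and is not independent support. Of the 12 tested members whose highest FPKM was more than 1.5 times the lowest, 6 also exceeded 1.5 times on coverage (Atp5g3, Cox6b2, Cox7a1, Ndufa4l2, Ndufa5 and Ndufb10). Ndufa12, an accessory subunit of complex I, was at 71.6 FPKM in QC3 and 82.0 FPKM in QC6 but at 132.5 to 145.0 FPKM in the other libraries. Its coverage per gigabase was 11.4 to 13.2 in all 6 libraries. For Cox7a1 the ratio of highest to lowest was 2.34 on FPKM and 2.22 on coverage, so its high value in QC6 was seen on both. Coverage was compared, and these genes chosen, after the values were seen.

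**Figure D4:**
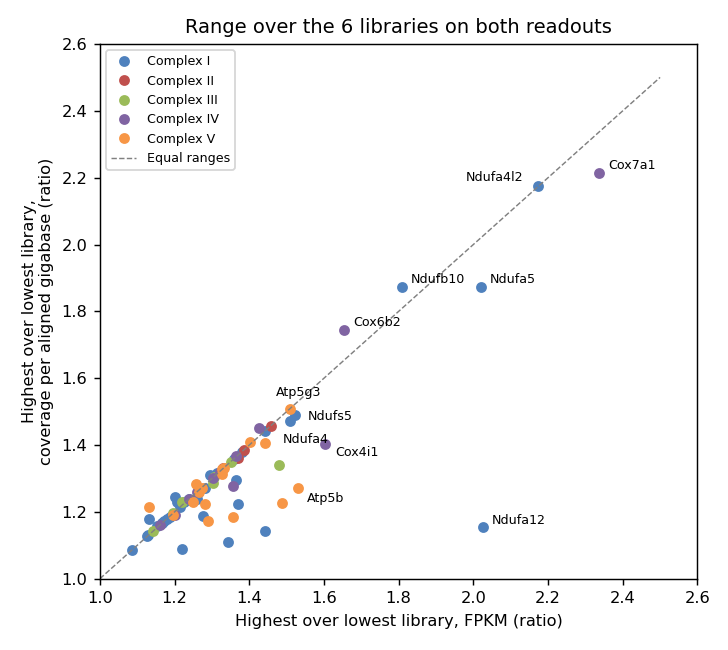
Ratio of the highest to the lowest library for 78 tested members, on FPKM (horizontal axis) and on coverage per aligned gigabase (vertical axis), with names for ratios above 1.5 on FPKM. Ndufa12, Atp5b and Cox4i1 lie below the dashed line of equal ranges, and Cox7a1 lies close to it.

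Other genes of the pathway were described from lists and not as members. Of 10 subunits and carriers outside the symbol rule, 10 were lower in ApcMin PCdel (median log2 fold change -0.07), and 5 of 10 were lower without QC6. Among them, cytochrome c (Cycs) had a log2 fold change of -0.05, cytochrome c1 (Cyc1) -0.06, the acyl carrier protein Ndufab1 -0.01 and the ATP synthase inhibitor Atpif1 -0.12. Of 46 assembly factors, 25 were lower and 21 higher (median -0.01). One of them, Acad9, a factor for complex I, had an unadjusted p under 0.05, with a difference of 0.47 on the log2 scale (standard error 0.19) and an adjusted p of 1.0 from limma. On coverage its difference was 0.12, with an unadjusted limma p of 0.227. Its groups did not overlap, with ApcMin PCdel higher, on FPKM (background 6.0% of all genes tested) or on coverage (background 5.41%). Among 12 regulators of mitochondrial biogenesis tested, 7 were lower, and Ppargc1a, Nrf1, Gabpa, Tfam and Esrra had log2 fold changes of -0.08, 0.08, 0.00 (-0.0020), -0.03 and -0.02. Of 17 tricarboxylic acid cycle genes 12 were lower (median -0.05) and of 16 glycolysis genes 7 were lower (median 0.01). Both turned without QC6, to 5 of 17 lower (median 0.06) and 10 of 16 lower (median -0.06). Of 84 cytosolic ribosome genes tested 79 were lower (median -0.08), and without QC6 their median was -0.20, further from 0, whereas that of the members was nearer to 0. No gene of these lists passed the adjusted threshold. All 37 genes of chromosome M, with the 13 mitochondrially encoded subunits, were listed at 0 in every library, so the subunits of the other genome could not be set beside the members.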

How the data were processed

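RNA from adenomas was sequenced by the authors from TruSeq libraries on an Illumina HiSeq instrument, and CLC Genomics Workbench and a MatLab normalization are named in the methods. The program and annotation behind the tables are not given in the sources used here, and gene positions match GRCm38. For each gene the authors deposited FPKM, TPM (scaled to a fixed sum per library) and read coverage (mean depth, not scaled). No read counts were used.

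FPKM was summed per gene identifier. The 14240 genes with a mean of at least 1 FPKM over the 6 libraries were compared with limma 3.58.1 in R 4.3.3 (lmFit and trended eBayes) after a log2(FPKM + 1) transform, which understates the change of low genes, with Benjamini-Hochberg adjustment at 0.05. Single genes were also compared by exact two-sided permutation of the libraries. Counting intervals were not derived, since the read length was not used. Aligned gigabases came from the ratio of coverage to FPKM, and coverage was divided by them as an added readout. Shared 31-base words were counted in GENCODE transcripts. The fit was tested on simulated data with known changes. It missed the recovery cutoff set at first, which was then replaced by one that depends on a gene's spread, and changed genes of high spread were mostly missed. Alternatives were TPM, a minimum of 5 FPKM, no filter, a pseudocount of 0.1, quantile normalization, median centring, no trend, array weights and each library left out.

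Members and lists were chosen with earlier results of these data known. The genes named are, per complex, the 3 most abundant and the extremes of fold change, those with an unadjusted p under 0.05 and groups apart, tissue isoforms and core subunits. Exceptions are marked in the text. A gene that the rule names is not reported here, though it stays in the fits and counts.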

Additional observations from a re-analysis of the deposited data

How the results depend on the processing

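No respiratory chain gene passed the adjusted threshold under any of the 15 alternatives, of which coverage per aligned gigabase was added after the data were seen, and the lowest adjusted p of any member was 0.556. Over all genes, 2 passed at first, 1 without a filter or with median centring, and between 1 and 5 with each library left out. Array weights, which gave QC6 a weight of 0.237, left 0 of 4 members of complex II lower. With each library left out, between 0 and 4 members of complex II and between 9 and 16 of complex V were lower, the least in both without QC6, whose removal also left the median of all members at -0.0386, the nearest to 0 of these fits (lowest -0.1595, without QC4). Of the 38 named members tested, 19 changed sign in at least 1 alternative, all of them short of the threshold; the cause was not tested. With TPM it was Atp5g1 (0.0593). With array weights it was Atp5g1 (0.1389), Atp5g3 (0.0345), Cox7a1 (0.008), Ndufa4 (-0.0588), Ndufa4l2 (-0.0681), Ndufv1 (0.0134), Sdhb (0.0186), Sdhc (0.0305), Sdhd (0.0652) and Uqcrfs1 (0.0581). With coverage it was Cox4i1 (-0.0114), Ndufc1 (0.0649) and Ndufv1 (0.0069). With median centring it was Ndufa4 (-0.0007), Ndufs1 (-0.0318) and Sdha (-0.0455). With quantile normalization it was Atp5g1 (0.0592), Atp5g3 (0.0075), Cox7a2l (0.0094), Cox8a (0.0004), Ndufa4l2 (-0.0256) and Uqcrfs1 (0.0138). With each library left out, the log2 fold change changed sign in Atp5g1 (-0.1463 to 0.1397), Atp5g3 (-0.2222 to 0.074), Cox4i1 (-0.0401 to 0.2989), Cox6b2 (-0.0367 to 0.2276), Cox7a1 (-0.4508 to 0.1551), Cox7a2l (-0.1489 to 0.0056), Ndufa4 (-0.092 to 0.1902), Ndufa4l2 (-0.1324 to 0.1556), Ndufb9 (-0.2199 to 0.0113), Ndufs1 (-0.0346 to 0.0957), Ndufv1 (-0.1077 to 0.0194), Ndufv2 (-0.175 to 0.0096), Sdha (-0.0634 to 0.1342), Sdhb (-0.2116 to 0.0561), Sdhc (-0.1721 to 0.0517), Sdhd (-0.1657 to 0.0677) and Uqcrfs1 (-0.151 to 0.0632). The other 19 named members kept their sign under every alternative. The median log2 fold change stayed below 0 under every alternative for all members (56 to 73 of 79 lower, apart from 52 without QC6 and 67 of 76 with a minimum of 5 FPKM), at -0.0516 with TPM, -0.0478 with quantile normalization and -0.0534 with array weights, and for complexes I, III, IV and V, while that of complex II turned to 0.0479 with array weights and 0.0619 without QC6. No paired analysis was possible because the groups share no library number. The planned ratio to mitochondrially encoded subunits was not run, since these genes were listed at 0. Read counts were not used, so counting error behind the low isoforms is unknown.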
